A study of Mus musculus with 90 samples.

Results

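The urea cycle genes were described across the mouse liver libraries of this series as 8 genes of 24312: Cps1, Otc, Ass1, Asl, Arg1, Nags, Slc25a13 and Slc25a15. They were chosen by function and not by any measured value, and each was taken as the RefSeq row with the highest mean RPKM (reads scaled to transcript length and to the reads of the library) over all libraries for its symbol. All 8 were measured in all 54 RNA libraries and passed the filter on low values in each of the 5 RNA experiments, so every one of them entered every test.

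The urea cycle converts the ammonia released from amino acids into urea, which the kidney excretes, and in mammals the complete cycle runs in the hepatocyte, mainly around the portal vein. Cps1 and Otc act in the mitochondrion, where ammonia and bicarbonate become carbamoyl phosphate and then citrulline, whereas Ass1, Asl and Arg1 act in the cytosol, where citrulline is joined to aspartate, split into arginine and fumarate, and hydrolyzed to urea and ornithine. Nags makes N-acetylglutamate, the obligatory activator of Cps1. Slc25a15 carries ornithine and citrulline across the inner mitochondrial membrane, and Slc25a13 (citrin) exports the aspartate that Ass1 uses. Glucocorticoids and glucagon are textbook inducers of the enzymes of the cycle.

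The study asked how a meal changes liver gene expression and what insulin signaling and the glucocorticoid receptor (GR, gene Nr3c1) contribute to it. In the first experiment, C57BL/6 wild type males (C57BL/6N per the methods), 10 weeks old, on night-restricted feeding (NRF) were killed at zeitgeber time (ZT) 10, or at ZT14 with food from ZT12 (ZT14-fed) or without it (ZT14-unfed), with 2 livers a group and ribosome-depleted RNA. In the second, wild type mice at ZT14 received vehicle unfed, or vehicle, dexamethasone (dex, a synthetic GR ligand, 1 mg/kg), S961 (a peptide antagonist of the insulin receptor) or dex with S961 before food, with 4 livers a group. Per the methods these mice were C57BL/6N and 10 weeks old. The labels give the S961 dose as 44 nM per mouse, whereas the methods state it per kg. The third compared unfed Nr3c1 fl/fl mice (C57BL/6N per the methods) given an adeno-associated virus (AAV) with GFP (control) or with Cre (L-GRKO) 2 weeks before NRF, 4 livers a group. Both viruses used the hepatocyte Tbg promoter, so other liver cells kept GR. The fourth compared fed Irs1 fl/fl, Irs2 fl/fl mice without or with Alb-Cre (L-IRSdKO, C57BL/6J and 10 weeks old per the methods), 4 livers a group. Every mouse of that experiment had received dex, the controls included. The fifth compared lean males on chow and diet-induced obese males after 10 weeks of high-fat diet, unfed or fed at ZT14, 3 livers a group. Per the methods the diet began at 5 weeks of age, and per the labels 4 days of NRF followed it in lean and obese mice. Experiments 2 to 5 used poly(A)-enriched RNA, and each RNA library came from a single mouse.

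The tissue carried its label in the whole series: Alb was the highest gene in all 5 experiments, the pancreatic marker Prss1 was at 0 in all 54 libraries and the intestinal marker Cdx2 in 52. Of the other pancreatic markers, Cpa1 was at 0 in 44 libraries and Ins2 in 48, but Cela1 in none, with a mean of 11.2 RPKM. Of the other intestinal markers, Vil1 was at 0 in 17 libraries, but Fabp2 in none, with a mean of 42.1 RPKM. The steps between low RPKM values placed the depth at 26022592 to 38243174 reads in the NRF experiment and 6458939 to 13490221 in the injected mice. They placed it at 16885666 to 62237960 in the obesity experiment and 3643574 to 4490504 in the L-IRSdKO experiment. The sequencing summary of the study lists more reads for each L-IRSdKO library, so the depth recovered there is uncertain. The steps gave no clear depth for the L-GRKO experiment. In the L-IRSdKO experiment the mean of Alb was 807 RPKM and no gene exceeded 1000 RPKM, whereas Alb ranged from 24692 to 45686 RPKM in the means of the other 4, so levels were not compared between experiments. In bulk RNA, fewer cells of a type and less RNA per cell cannot be told apart. Nr3c1 was 14.2 ± 1.55 RPKM (SD, n = 4) in control and 4.41 ± 0.637 RPKM (SD, n = 4) in L-GRKO livers. Irs1 was 4.03 ± 1.22 and 0.199 ± 0.082 RPKM (SD, n = 4 each) in control and L-IRSdKO livers, and Irs2 was 2.19 ± 2.31 and 0.773 ± 0.337 RPKM and did not pass the test.

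The enzymes of the cycle ranked among the most abundant transcripts of the liver, which RPKM, being per transcript length, allows to be compared between genes. By its mean within each of the 5 experiments, Cps1 ranked between 29 and 87 of 24312 genes, Arg1 between 32 and 80, Asl between 70 and 142 and Otc between 207 and 396. Ass1 ranked between 29 and 103 outside the L-IRSdKO experiment, where its rank was 716. The carriers Slc25a15 and Slc25a13 ranked between 174 and 797 and between 474 and 644, and Nags, whose product only activates Cps1, between 1246 and 1920. Cps1 held 39.8% of the summed RPKM of the 8 genes in the NRF experiment and 17.7% in the L-GRKO experiment, whereas Nags held under 1% in all but the L-IRSdKO experiment, where it held 3.63%. Within groups the median coefficient of variation ran from 6.04% for Slc25a13 to 14.1% for Slc25a15.

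The order was Cps1, Arg1, Ass1, Asl and Otc in the NRF, injected and obesity experiments, with Nags last in all 5. In the obesity experiment the first 3 were within their spread over all libraries, which pools diets and feeding states. They stood at 975 ± 177 RPKM for Cps1, 925 ± 157 for Arg1 and 790 ± 250 for Ass1 (SD, n = 12 libraries). The carriers Slc25a13 and Slc25a15 were also within it, with 107 ± 8.06 and 101 ± 18.5 RPKM. In fed obese livers alone, however, Ass1 (457 to 712 RPKM) lay below Cps1 (831 to 1068 RPKM) and Arg1 (802 to 905 RPKM), whereas the 3 overlapped in the other groups. In unfed obese livers alone, Slc25a15 (65.9 to 95.1 RPKM) lay below Slc25a13 (106 to 113 RPKM), and the carriers overlapped in the other groups. In the L-GRKO experiment Ass1 came first with 1568 ± 374 RPKM (SD, n = 8, control and L-GRKO livers pooled), ahead of Arg1 and Cps1. In the L-IRSdKO experiment it came seventh with 89.2 ± 5.79 RPKM (SD, n = 8, control and L-IRSdKO livers pooled). There the processed Ass1 copy Gm5424 stood at 208 RPKM, or 234% of Ass1, against 1.07% to 1.47% in the other 4 experiments. Of the 1647 stretches of 50 bases in Ass1, 910 (55.3%) also occur in Gm5424, so reads of the pair cannot be told apart there, and the Ass1 value of the L-IRSdKO experiment is uncertain. Nags shares 20% of such stretches with the gene Gm11586 on the opposite strand, and the other 6 genes share none.

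The 8 genes lie on 8 chromosomes. In mm9 with GENCODE vM1 annotation, Cps1 spans chr1:67169600-67277833 on the plus strand, Otc chrX:9829431-9898150 (plus), Ass1 chr2:31325727-31376192 (plus), Asl chr5:130487128-130501002 (minus), Arg1 chr10:24635014-24647276 (minus), Nags chr11:102006827-102010791 (plus), Slc25a13 chr6:5991219-6167173 (minus) and Slc25a15 chr8:23486026-23509093 (minus). Chromatin immunoprecipitation (ChIP) of GR and of the insulin-restrained forkhead factor FOXO1 in unfed livers, each from pools of 3 to 4 mice with replicates already joined, gave 10446 and 8546 peaks of 180 bases. DNase-seq gave 83592 DNase I hypersensitive sites (DHSs) called on fed and unfed livers combined. The lists give positions only, so occupancy was not compared between fed and unfed livers here.

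Within 50 kb of the transcription start site (TSS), 30 GR peaks lay at 7 of the 8 genes: 6 at Cps1 and at Slc25a13, 5 at Asl and at Arg1, 4 at Ass1, 3 at Slc25a15, 1 at Nags and none at Otc. FOXO1 peaks numbered 27, also at 7 of the 8: 5 at Cps1, at Arg1 and at Slc25a13, 4 at Asl and at Slc25a15, 3 at Ass1, 1 at Otc and none at Nags. A share of 33.6% of all 22120 placed genes had a GR peak within this distance and 35.3% a FOXO1 peak. Among the 509 placed genes whose mean reached 100 RPKM, however, the shares were 86.1% and 81.7%, so the presence of a peak near 7 of 8 genes is near what genes of such a level have. The median number of GR peaks was 4.5 for the 8 genes, 0 for all placed genes and 3 for those 509. A DHS lay within 2 kb of the TSS of 7 genes, all but Slc25a15, against 92.3% of the 509.

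**Figure D1:**
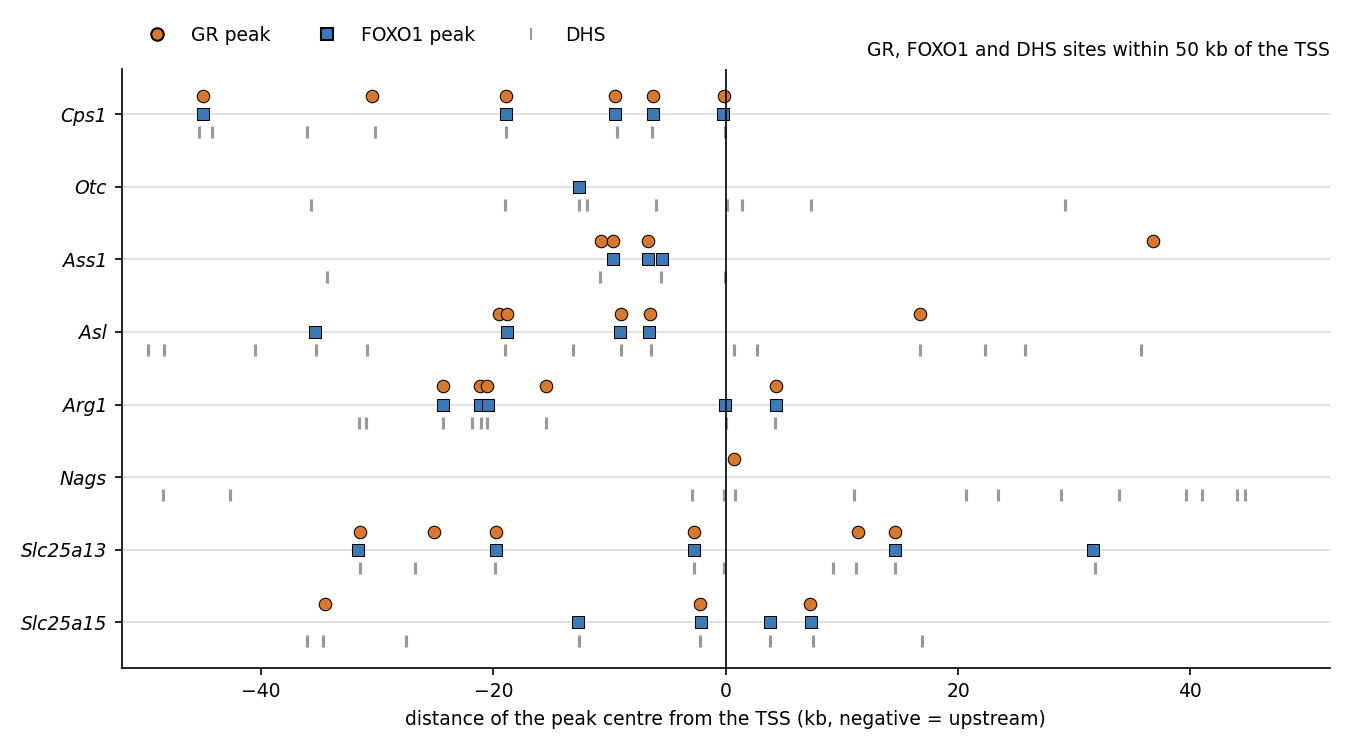
Each row is a urea cycle gene, and the horizontal axis is the distance of a peak centre from its TSS in kb, negative upstream; circles are GR peaks, squares FOXO1 peaks and ticks DHSs. Most GR and FOXO1 peaks sit upstream and in pairs, Cps1 has both factors at its TSS, Otc has no GR peak and Nags no FOXO1 peak.

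The peaks closest to a TSS were those of Cps1, with GR at -128 and FOXO1 at -204 bases, of Arg1, with FOXO1 at -72 bases and GR at 4346 bases in an intron, and of Nags, with GR at 738 bases in an intron. At Slc25a15 the closest GR peak lay at -2188, at Slc25a13 at -2726, at Asl at -6500 and at Ass1 at -6714 bases. Of the 30 GR peaks 23 were upstream, 20 overlapped a FOXO1 peak by at least 1 base (48.8% over all GR peaks) and 20 overlapped a DHS (81.6% over all GR peaks). In turn, 20 of the 27 FOXO1 peaks shared bases with GR peaks (59.7% over all FOXO1 peaks). The gene was also the nearest TSS for 23 of the 30 GR and 21 of the 27 FOXO1 peaks. The exceptions include all 5 GR peaks counted for Asl, of which 4 lie inside the neighboring gene Crcp and are nearer to its TSS, and 1 is nearest to Gusb.

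The sequences of 9 of these sites are shown because the tests below turn on their genes: the GR peak closest to each of the 6 genes that passed a test after GR loss or dex, the only GR peaks near the 8 genes with a full palindrome (at Cps1 and Slc25a13), and the only FOXO1 peak near Otc. They are read 5′ to 3′ from the plus strand of mm9, and capitals mark every match on either strand to the GR palindrome GNACANNNTGTNC, the GR hexamer TGTTCT, the forkhead motif GTAAACA or the C/EBP motif TTGCNNAA.
Cps1 GR site, chr1:67169382-67169561: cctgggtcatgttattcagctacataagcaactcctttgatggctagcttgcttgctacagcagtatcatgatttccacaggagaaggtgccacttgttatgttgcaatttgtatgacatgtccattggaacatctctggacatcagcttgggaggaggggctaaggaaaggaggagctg
Cps1 GR site, chr1:67150585-67150764: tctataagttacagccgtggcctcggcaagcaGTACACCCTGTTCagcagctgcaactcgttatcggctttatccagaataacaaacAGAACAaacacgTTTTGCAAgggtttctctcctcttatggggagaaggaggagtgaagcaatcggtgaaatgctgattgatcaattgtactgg
Ass1 GR site, chr2:31318924-31319103: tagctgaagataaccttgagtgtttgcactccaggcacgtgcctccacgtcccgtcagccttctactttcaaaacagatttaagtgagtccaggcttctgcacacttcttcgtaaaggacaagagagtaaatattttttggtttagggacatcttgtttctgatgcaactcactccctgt
Asl GR site, chr5:130507413-130507592: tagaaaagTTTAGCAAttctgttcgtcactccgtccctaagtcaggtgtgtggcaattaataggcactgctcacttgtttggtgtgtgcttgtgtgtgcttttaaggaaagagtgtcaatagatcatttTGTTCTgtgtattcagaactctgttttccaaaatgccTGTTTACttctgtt
Arg1 GR site, chr10:24642841-24643020: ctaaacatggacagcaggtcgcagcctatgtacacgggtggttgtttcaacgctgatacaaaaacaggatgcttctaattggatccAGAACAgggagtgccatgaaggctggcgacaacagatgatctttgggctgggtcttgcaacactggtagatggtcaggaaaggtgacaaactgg
Nags GR site, chr11:102007475-102007654: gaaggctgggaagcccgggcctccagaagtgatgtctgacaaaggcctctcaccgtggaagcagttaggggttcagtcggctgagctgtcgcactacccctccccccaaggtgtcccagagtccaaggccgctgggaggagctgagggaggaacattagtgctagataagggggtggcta
Slc25a15 GR site, chr8:23511192-23511371: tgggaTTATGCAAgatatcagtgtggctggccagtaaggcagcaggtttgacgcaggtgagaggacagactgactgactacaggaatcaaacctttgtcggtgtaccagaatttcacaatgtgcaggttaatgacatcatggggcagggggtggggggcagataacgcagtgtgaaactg
Slc25a13 GR site, chr6:6192169-6192348: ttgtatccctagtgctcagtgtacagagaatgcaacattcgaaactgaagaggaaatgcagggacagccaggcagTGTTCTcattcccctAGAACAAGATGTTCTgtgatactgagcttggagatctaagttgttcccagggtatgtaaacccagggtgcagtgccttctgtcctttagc
Otc FOXO1 site, chrX:9816675-9816854: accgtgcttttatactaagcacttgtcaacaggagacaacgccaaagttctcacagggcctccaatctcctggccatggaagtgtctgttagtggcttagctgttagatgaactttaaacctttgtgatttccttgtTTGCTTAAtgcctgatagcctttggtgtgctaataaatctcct

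The palindrome was found in 2 of the 30 GR peaks near the 8 genes and in 7.8% of all GR peaks, and the hexamer, which overlaps some palindromes, in 13 of the 30 and in 27.7% of all. The forkhead motif was found in 4 of the 30 (7.29% of all) and the C/EBP motif in 8 of the 30 (31.5% of all). In FOXO1 peaks the forkhead motif was found in 6 of the 27 (18.8% of all), the C/EBP motif in 5 (24.3%), the hexamer in 9 (19.5%) and the palindrome in 1 (3.25%). The C/EBP palindrome TTGCGCAA (contained in TTGCNNAA), the cyclic AMP response element TGACGTCA and the HNF4 motif CAAAGTCCA had no match in any of these GR or FOXO1 peaks, against 0.517%, 0.431% and 1.89% of all GR peaks and 0.363%, 0.562% and 2.32% of all FOXO1 peaks. The GR peaks closest to Cps1, Ass1 and Nags held none of the letters searched, which says nothing about binding there. The Slc25a13 site holds 3 hexamer matches around its palindrome, and the Cps1 site at -18926 bases holds the palindrome, a hexamer and a C/EBP match.

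Loss of GR in hepatocytes lowered the RNA of Cps1 and of all 3 cytosolic enzymes in unfed mice, and left the other 4 genes short of the threshold. Of the 8 genes 4 fell and none rose at an adjusted p under 0.05 (limma), where 6.68% of the 11649 genes tested were called in either direction and 2.22% as lower. The median difference of the 8 genes was -0.50 on the log2 scale and that of all genes 0.08. Groups without overlap are named gene by gene, and the share of all genes whose groups come apart was not counted in any comparison.

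Arg1 was at 974, 852, 943 and 1001 RPKM in the control livers and at 430, 427, 401 and 537 RPKM in the L-GRKO livers. It fell by 1.08 on the log2 scale (SE 0.11, adjusted p = 0.000486). Every L-GRKO liver was below every control liver for the enzyme that releases urea. Asl, which releases the arginine, was at 566, 477, 526 and 449 RPKM in control and at 219, 250, 246 and 298 RPKM in L-GRKO livers. It fell by 1.00 (SE 0.12, adjusted p = 0.000954), again without overlap. Cps1, the entry step of the cycle, was at 1000, 795, 773 and 843 RPKM in control and at 471, 421, 412 and 524 RPKM in L-GRKO livers. It fell by 0.90 (SE 0.12, adjusted p = 0.00173), and the groups did not overlap. Of these 3 calls none was lost when any of the 8 libraries was left out.

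Ass1, which joins citrulline to aspartate, was at 2155, 1830, 1987 and 1509 RPKM in control and at 1204, 1226, 1390 and 1243 RPKM in L-GRKO livers. It fell by 0.55 (SE 0.12, adjusted p = 0.0254), and although the groups did not overlap, the call was lost in 6 of the 8 fits that left out a library, with adjusted p up to 0.0848, and kept without control replicate 4 or L-GRKO replicate 3. The ornithine carrier Slc25a15 was at 115, 90, 76.6 and 77.1 RPKM in control and at 66.1, 63.7, 64.4 and 66.3 RPKM in L-GRKO livers. The L-GRKO livers were all lower and close together, with a difference of -0.44 (SE 0.12) and an adjusted p of 0.0621, which was 0.0488 without control replicate 3 (-0.51).

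Nags stood the other way, at 20.8, 21.6, 25.5 and 22 RPKM in control and at 30.3, 30.7, 24.3 and 33.2 RPKM in L-GRKO livers, a difference of 0.39 (SE 0.11, adjusted p = 0.0668). L-GRKO replicate 3 was the only L-GRKO liver within the control range, and without it the difference was 0.48 (adjusted p = 0.0287). Otc, the mitochondrial partner of Cps1, was at 202, 185, 202 and 205 RPKM in control and at 192, 213, 228 and 236 RPKM in L-GRKO livers, a difference of 0.13 (SE 0.09, adjusted p = 0.493). Slc25a13, which had as many GR peaks as Cps1, differed by 0.20 (SE 0.10, adjusted p = 0.278). The 2 groups overlapped for all 3 of these genes.

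**Figure D2:**
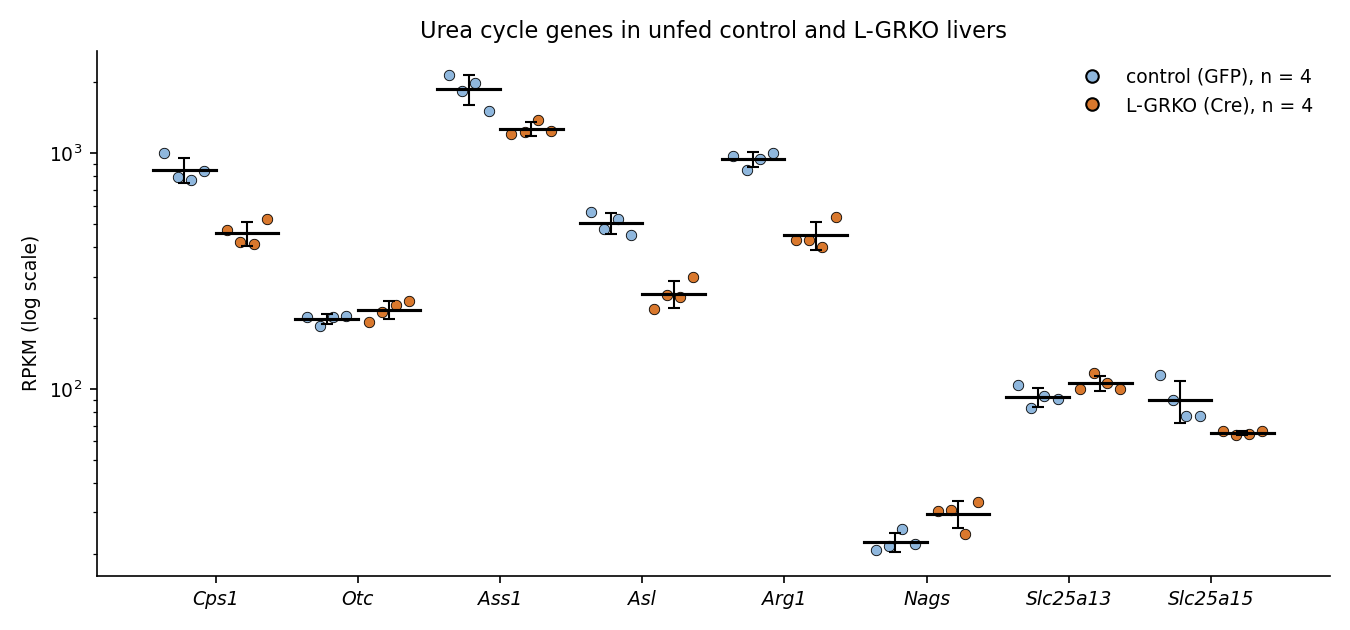
RPKM on a log scale of each urea cycle gene in unfed control (GFP, blue) and L-GRKO (Cre, orange) livers; points are livers, bars the mean and SD of 4. For Cps1, Ass1, Asl, Arg1 and Slc25a15 all L-GRKO livers lie below all control livers, whereas Otc, Nags and Slc25a13 overlap. The share of all genes whose groups come apart was not counted.

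Markers of other cells were compared in the same livers. None of the 5 hepatocyte markers passed the test (median difference -0.01). The 3 erythroid markers all rose, with sums from 223 to 289 RPKM in control and from 331 to 623 RPKM in L-GRKO livers, and the stellate marker Lrat rose. Of the 5 periportal markers Sds fell, with sums over the list from 1385 to 1701 RPKM in control and from 923 to 1324 RPKM in L-GRKO livers, and of the 7 pericentral markers Lgr5 rose, with sums from 3685 to 5917 and from 4083 to 6688 RPKM. The part of these markers in the differences of the urea cycle genes was not tested.

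Genes that feed the cycle moved in both directions after GR loss. Of 20 tested genes of a list of nitrogen supply, linked carriers and arginine use, 2 rose and 2 fell (median -0.04). Got1, the cytosolic aspartate aminotransferase, fell by 1.40 (SE 0.21, adjusted p = 0.00356) and Slc7a2, an arginine importer, by 0.62 (adjusted p = 0.0367), whereas the glutamine transporter Slc38a3 rose by 0.44 and the glycerol and urea channel Aqp9 by 0.52 (adjusted p = 0.0196 and 0.0148). Of 7 regulators, Nr3c1, Cebpb and Klf15, a GR target that drives amino acid catabolism, fell, and Cebpa rose by 0.61 (adjusted p = 0.0144).

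In fed mice, dex raised the ornithine carrier and lowered Nags, but raised no enzyme of the cycle past the threshold in the fit of all 4 livers a group without further terms. With a term for the library series, described below, Ass1 also rose past it. In the fit without that term, 1 of the 8 genes rose and 1 fell against fed vehicle, where 3.19% of 11251 genes tested were called. With dex and S961 together it was again 1 up and 1 down, against 10.6% of genes called, and with S961 alone none passed, against 1.9%. No urea cycle gene reached even an unadjusted p under 0.05 with S961 alone, where 14.3% of all genes did. The 3 comparisons share the fed vehicle livers.

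Slc25a15 was at 118, 122, 86.7 and 90.7 RPKM in fed vehicle livers and at 230, 229, 195 and 169 RPKM after dex. It rose by 0.98 on the log2 scale (SE 0.15, adjusted p = 0.00102), and the lowest dex liver was above the highest vehicle liver. With S961 alone it was at 140, 108, 126 and 101 RPKM, which overlapped vehicle. With dex and S961 it was at 204, 179, 161 and 139 RPKM and rose by 0.71 against vehicle (SE 0.15, adjusted p = 0.00438). Dex exceeded S961 by 0.79 (SE 0.15, adjusted p = 0.00165), the only call among the 8 genes in that comparison, where 7.47% of genes were called. The interaction of dex and S961 was -0.46 (SE 0.21, adjusted p = 1), and over all genes it called 0 of 11251 (0%), with 513 at an unadjusted p under 0.05.

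Nags was at 26.3, 23.6, 26.5 and 32.9 RPKM in fed vehicle livers and at 19.3, 19.2, 21.4 and 22 RPKM after dex. It fell by 0.40 (SE 0.09, adjusted p = 0.0249), without overlap. With dex and S961 it was at 21.1, 21.5, 20.7 and 22.2 RPKM and fell by 0.34 (SE 0.09, adjusted p = 0.028), also without overlap, and this call was lost in 4 of 8 fits that left out a library, those without vehicle replicate 4 or without replicate 1, 2 or 3 of the combined group. The dex call was lost without vehicle replicate 4, whose 32.9 RPKM was the highest of the 4 (-0.31, adjusted p = 0.0612), and without dex replicate 1 or 2 (adjusted p = 0.089 and 0.093).

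The cytosolic enzymes stood above every fed vehicle liver in dex replicates 1 to 3 and not in replicate 4. Ass1 was at 464, 421, 463 and 586 RPKM in fed vehicle livers and at 772, 950, 696 and 484 RPKM after dex. Asl was at 473, 408, 449 and 372 RPKM and at 593, 690, 561 and 353 RPKM. Arg1 was at 880, 777, 864 and 705 RPKM and at 1006, 1216, 1061 and 751 RPKM. In each of the 3 genes replicate 4 of the dex group was the lowest dex liver and lay within the vehicle range or below it, and the differences were 0.56 (adjusted p = 0.057), 0.33 (adjusted p = 0.225) and 0.31 (adjusted p = 0.176).

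By their library numbers in the labels, replicates 1 to 3 of all 5 groups belong to a series of numbers apart from that of replicate 4, so the fit was repeated on replicates 1 to 3 alone, a choice made after seeing the data. Then 5 of the 8 genes passed the test with dex, where 7.28% of 11230 genes were called: Ass1 rose by 0.83 (adjusted p = 0.000732), Asl by 0.47 (adjusted p = 0.00753), Arg1 by 0.38 (adjusted p = 0.0308) and Slc25a15 by 1.01 (adjusted p = 0.00105), and Nags fell by 0.34 (adjusted p = 0.0323). With the library series as a term in the fit over all 4 replicates, where 9.74% of genes were called, Ass1 rose by 0.56 (adjusted p = 0.0311), and Asl and Arg1 did not pass. Replicate 4 alone, with 1 liver a group, allows no test. Ass1 also passed without vehicle replicate 4 alone (0.65, adjusted p = 0.0346).

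**Figure D3:**
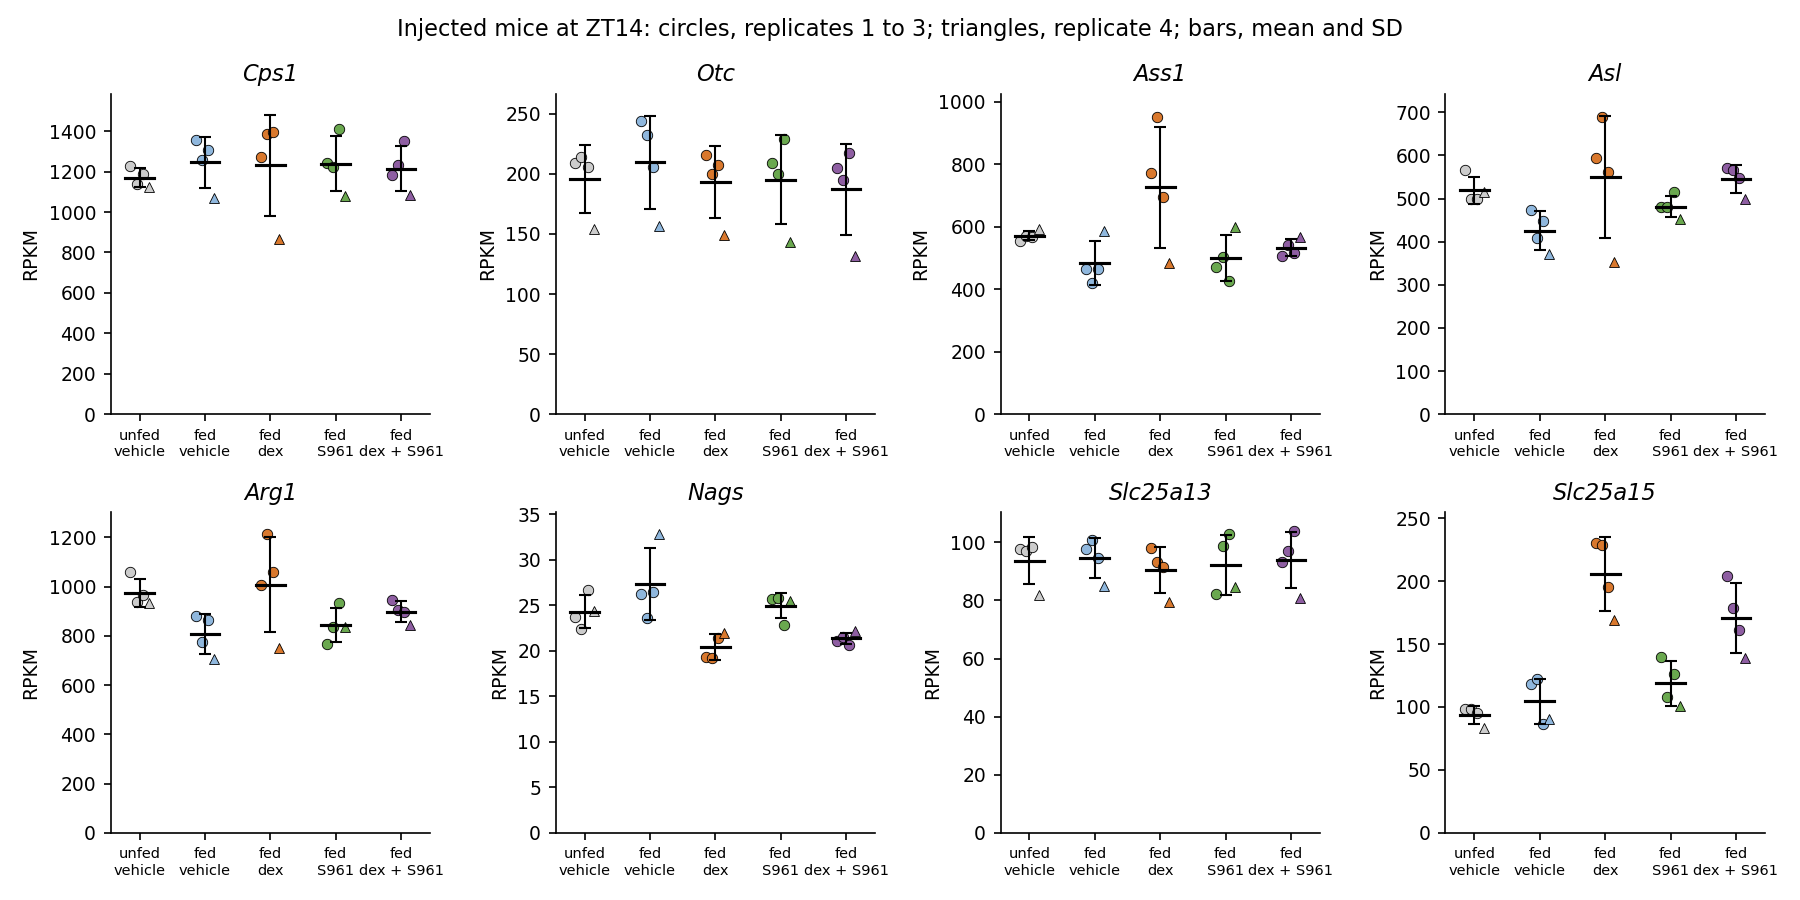
RPKM of each urea cycle gene in the 5 groups of injected mice at ZT14, on axes from 0; circles are replicates 1 to 3, triangles replicate 4, and bars the mean and SD of 4. Slc25a15 is high and Nags low in the groups with dex, Otc is lowest in replicate 4 of every group, and the dex livers of replicates 1 to 3 are the highest for Ass1 among the fed groups.

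Cps1, Otc and Slc25a13 stayed within 0.17 of vehicle on the log2 scale with dex, S961 or the combination, and their groups overlapped. Cps1, for instance, was at 1354, 1258, 1307 and 1067 RPKM with vehicle and at 1271, 1387, 1398 and 867 RPKM with dex. Otc was at 157, 149, 143 and 132 RPKM in replicate 4 of the fed vehicle, dex, S961 and combined groups, below the other 3 livers of each group.

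In the list of nitrogen genes, dex raised Got1 by 1.07 (adjusted p = 0.0304) and Slc7a2 by 0.92 (adjusted p = 0.00244) and lowered Glul, the glutamine synthetase of pericentral hepatocytes, by 0.65 (adjusted p = 0.0355), so 3 of 20 tested passed. S961 alone raised Got1 by 1.09 (adjusted p = 0.0393). The combination raised Got1, Gpt2, Slc25a22 and Slc7a2. The GR targets Tat and Klf15 rose with dex by 1.29 and 0.84 (adjusted p = 0.00295 and 0.00642). Among other markers, the endothelial genes Clec4g and Kdr and the Kupffer cell gene Cd5l fell with dex. The 5 endothelial markers summed to between 60.5 and 71.2 RPKM with vehicle and between 50.1 and 62.6 RPKM with dex, and the 5 hepatocyte markers to between 44240 and 59329 and between 42701 and 75163 RPKM, with none called. Their part in the result was not tested.

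In fed, dex-treated mice without Irs1 and Irs2 in hepatocytes, the urea cycle transcripts were close to control apart from Nags. Of the 8 genes 1 fell and none rose, against 17.4% of 12966 genes called. Nags was at 67.7, 64, 62.7 and 63.6 RPKM in control and at 56.3, 41.6, 49.3 and 56.1 RPKM in L-IRSdKO livers. It fell by 0.35 (SE 0.10, adjusted p = 0.0415) without overlap, and the call was lost in 7 of the 8 fits that left out a library, all but the one without L-IRSdKO replicate 1. The other 7 differences ran from -0.00 for Otc to 0.10 for Ass1, with SE of 0.06 to 0.13, and their groups overlapped. Cps1, for example, was at 348, 327, 384 and 352 RPKM in control and at 366, 349, 400 and 348 RPKM in L-IRSdKO livers.

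In the same livers 9 of the 21 tested nitrogen genes passed: Got1, Fh1, Slc25a12, Slc25a22 and Slc7a2 rose, and Gpt, Car5a, Glul and Odc1 fell. Slc25a12, the aspartate carrier of other tissues and the counterpart of Slc25a13, rose by 0.64 (adjusted p = 0.0128), and Car5a, the mitochondrial carbonic anhydrase that supplies bicarbonate to Cps1, fell by 0.41 (adjusted p = 0.0192). The insulin-repressed gene Igfbp1 rose by 3.30 (adjusted p = 0.000625). Of the 5 hepatocyte markers Ttr and Serpina1c fell, with sums from 2239 to 2590 RPKM in control and from 1997 to 2464 RPKM in L-IRSdKO livers, and 3 of 5 endothelial and 2 of 6 Kupffer cell markers rose. The endothelial sums ran from 88.9 to 116 and from 108 to 143 RPKM, and the Kupffer cell sums from 145 to 269 and from 258 to 330 RPKM. The cholangiocyte markers Krt7 and Spp1 fell, with sums from 19.7 to 46.2 and from 7.87 to 13.9 RPKM, which did not overlap. Cyp2f2 of the periportal list, Glul and Cyp1a2 of the pericentral list, the erythroid gene Alas2 and the pancreatic gene Cela1 also fell, and the stellate gene Dcn rose. The part of these markers was not tested.

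Of the 8 genes, Nags alone passed the test of a meal, in lean mice, among the 4 settings that tested one. In NRF mice none of the 8 genes was called at an adjusted p under 0.01 between ZT14-fed and ZT14-unfed (0.99% of 10907 genes called), between ZT14-unfed and ZT10 (1.16%) or between ZT14-fed and ZT10 (1.71%), and at an unadjusted p under 0.05 it was 2, 4 and 3 of the 8 genes, against 27.7%, 26.4% and 28.3% of all genes. In vehicle-injected mice none was called between fed and unfed (3.13% of genes called), with 1 of 8 at an unadjusted p under 0.05 against 19.3% of all. In obese mice none was called (1.22% of 11434 genes), with 1 of 8 at an unadjusted p under 0.05 against 25.2% of all. In lean mice 1 of the 8 was called, against 10.2%, with 2 of 8 at an unadjusted p under 0.05 against 36.3% of all.

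That gene was Nags. It was at 24.2, 23.1 and 22.6 RPKM in unfed and at 32.1, 32.6 and 44.6 RPKM in fed lean livers and rose by 0.62 (SE 0.12, adjusted p = 0.00529). The call was lost in 5 of the 6 fits that left out a library, all but the one without fed lean replicate 1, and over the 6 the adjusted p ran from 0.00849 to 0.0205. Slc25a13 was at 116, 123 and 113 RPKM in unfed and at 104, 98.4 and 102 RPKM in fed lean livers, a difference of -0.21 (SE 0.07, adjusted p = 0.0441) that missed the threshold although the groups did not overlap. In obese livers Nags was at 22.5, 21.7 and 26.6 RPKM unfed and at 29.9, 28 and 29.9 RPKM fed, a difference of 0.31 (SE 0.12, adjusted p = 0.141), without overlap. In NRF mice it was at 11.1 and 13.5 RPKM unfed and at 16.9 and 17.1 RPKM fed, a difference of 0.46 (SE 0.14, adjusted p = 0.0981). In vehicle-injected mice the difference was 0.16 (SE 0.09, adjusted p = 0.381) and the groups overlapped. The interaction of diet and meal was -0.31 for Nags (SE 0.17, adjusted p = 0.43). It was called for none of the 8 genes, of which none had an unadjusted p under 0.05, and for 0.131% of all genes.

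Asl stood lower after food in NRF and vehicle-injected mice without passing the threshold. It was at 348 and 420 RPKM in ZT14-unfed and at 297 and 292 RPKM in ZT14-fed NRF livers, a difference of -0.38 (SE 0.14, adjusted p = 0.128). In vehicle-injected mice it was at 565, 498, 500 and 514 RPKM unfed, above all 4 fed livers, a difference of -0.29 (SE 0.15, adjusted p = 0.283). In lean and obese mice the fed and unfed livers overlapped, with differences of -0.16 and 0.13. Ass1 overlapped between fed and unfed livers in all 4 settings, with differences of 0.03, -0.25, -0.07 and -0.27 in NRF, vehicle-injected, lean and obese mice. At ZT10 Asl was at 260 and 207 RPKM, and ZT14-unfed exceeded it by 0.72 (SE 0.14, adjusted p = 0.0232). Slc25a15 was at 54.5 and 52.5 RPKM at ZT10 and at 68.5 and 83.2 RPKM in ZT14-unfed livers, a difference of 0.49 (SE 0.11, adjusted p = 0.0375). Both passed a threshold of 0.05 but not the 0.01 used in this experiment. Arg1 in vehicle-injected mice was at 1058, 939, 967 and 934 RPKM unfed and lower in all 4 fed livers, a difference of -0.28 (SE 0.12, adjusted p = 0.215). In the vehicle-injected livers the Kupffer cell markers Cd5l, Timd4 and Adgre1 rose with food (3 of 6), with sums from 46.9 to 60.2 RPKM unfed and from 65 to 101 RPKM fed, and their part was not tested. These fed vehicle livers are also the control of the dex and S961 comparisons.

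Among the nitrogen genes, the arginine importer Slc7a2 fell with food in lean mice by 2.41 (SE 0.25, adjusted p = 0.0003) and in vehicle-injected mice by 0.69 (adjusted p = 0.0229), and between ZT10 and ZT14-fed livers by 1.48 (adjusted p = 0.00452). Odc1, which turns ornithine into putrescine, rose with food in lean mice by 0.59 (adjusted p = 0.00973). Between ZT10 and ZT14 without food, Got1 rose by 1.33 (adjusted p = 0.0078), and Slc38a3 and Aqp9 fell by 0.81 and 0.80 (adjusted p = 0.00547 and 0.00895). In lean livers the endothelial marker Stab2 fell with food, with sums over the 5 markers from 54.3 to 65.6 RPKM unfed and from 39.3 to 46.3 RPKM fed, and no hepatocyte marker passed. Their part in the Nags result was not tested.

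No urea cycle gene passed the test between obese and lean livers, and Asl was the only one whose groups were apart in both feeding states. Slc25a13 in unfed mice (-0.11) and Nags in fed mice (-0.29) were also lower in every obese than in every lean liver. The share of all genes whose groups come apart in this way was not counted. In unfed mice 0 of the 8 genes passed an adjusted p under 0.01 (limma), against 0.77% of all genes, with 2 of 8 at an unadjusted p under 0.05 against 22.9% of all. In fed mice 0 of the 8 passed and 0% of all genes were called, although 2284 genes (20%) had an unadjusted p under 0.05, 3 of the 8 among them. Asl was at 855, 544 and 638 RPKM in unfed lean and at 415, 350 and 406 RPKM in unfed obese livers. The obese livers were all lower, with a difference of -0.78 (SE 0.16, adjusted p = 0.0258). In fed livers Asl was at 574, 527 and 704 RPKM in lean and at 472, 407 and 399 RPKM in obese mice, a difference of -0.49 (SE 0.16, adjusted p = 0.147), again without overlap. Ass1 in fed livers was at 924, 740 and 1120 RPKM in lean and at 712, 522 and 457 RPKM in obese mice, a difference of -0.72 (SE 0.26, adjusted p = 0.166), while the unfed groups overlapped (-0.53, adjusted p = 0.245). Slc25a15 was at 136, 111 and 106 RPKM in unfed lean and at 65.9, 95.1 and 87.3 RPKM in unfed obese livers, a difference of -0.51 (SE 0.15, adjusted p = 0.081), while the fed groups overlapped (-0.18, adjusted p = 0.559). The regulators Cebpb and Klf15 fell in unfed obese livers by 1.25 and 0.69 (adjusted p = 0.00271 and 0.00805) and Aqp9 rose by 0.61 (adjusted p = 0.00749). The endothelial marker Clec4g also fell there, with sums over its list from 54.3 to 65.6 RPKM in lean and from 30.9 to 39.3 RPKM in obese livers. No periportal or pericentral marker passed. The 5 periportal markers summed to between 1447 and 1892 RPKM in lean and between 1154 and 1518 RPKM in obese unfed livers, and to between 1479 and 1642 and between 1112 and 1349 RPKM in fed livers, where the groups did not overlap. The 7 pericentral markers summed to between 5571 and 6192 RPKM in lean and between 7361 and 7736 RPKM in obese fed livers, also without overlap. The part of these markers in the differences of the urea cycle genes was not tested.

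**Figure D4:**
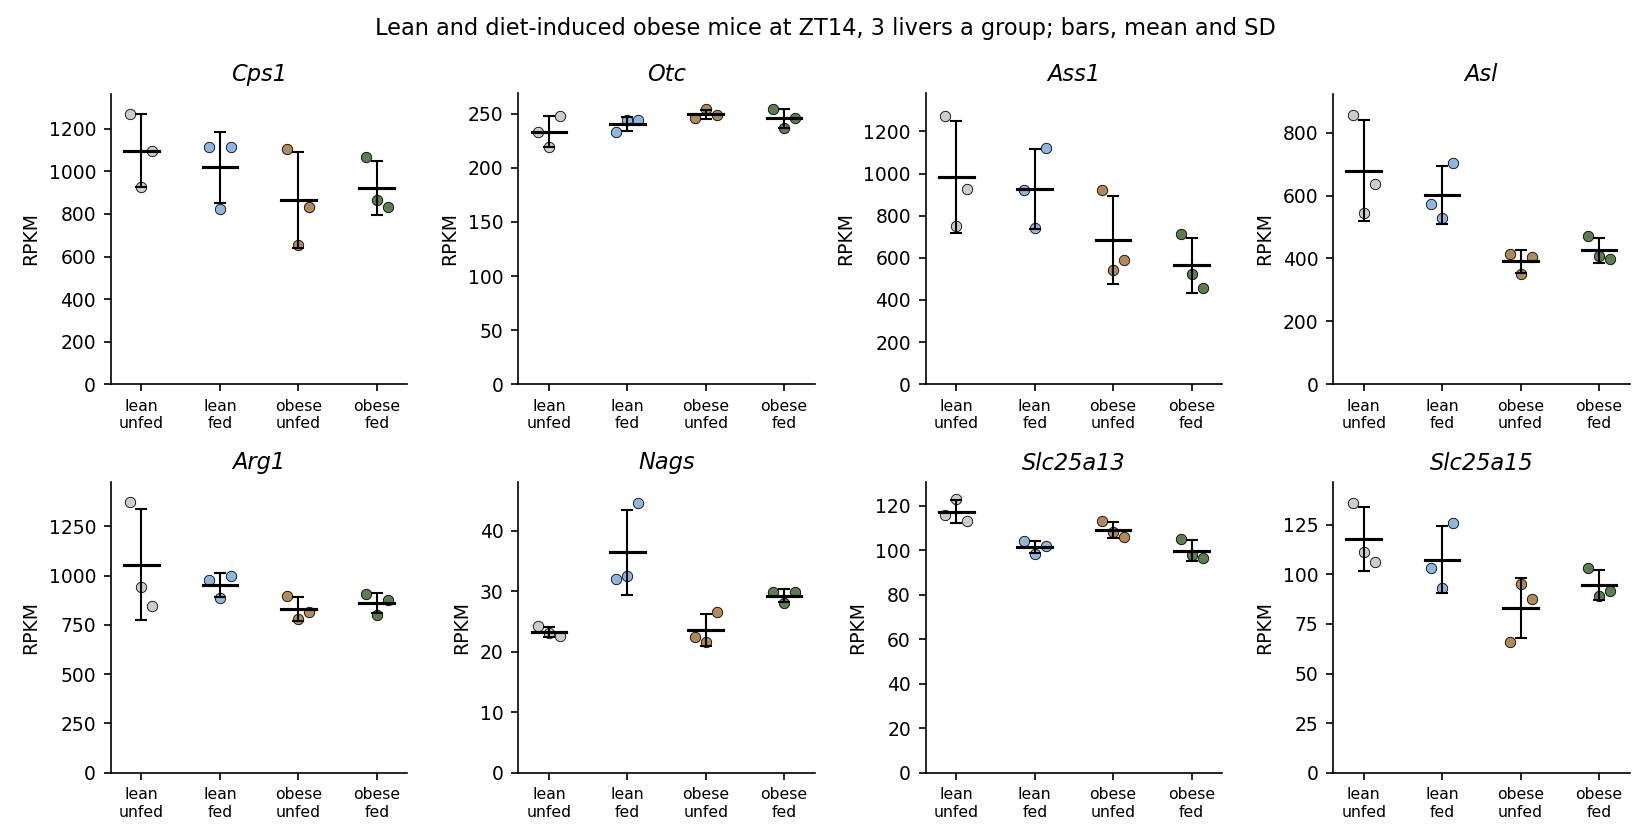
RPKM of each urea cycle gene in lean and obese livers, unfed and fed at ZT14, on axes from 0; points are livers and bars the mean and SD of 3. Asl is lower in all obese than in all lean livers in either feeding state, Nags is higher in fed than in unfed livers, and Otc varies little, with group means of 234 to 250 RPKM.

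Side by side, the 8 genes gave different profiles over the comparisons. In the fits of all libraries without a block or series term, Cps1, Ass1, Asl and Arg1 passed the test only after GR loss. Slc25a15 passed only in the comparisons with dex of injected mice, and Nags with dex, dex and S961, Irs1 and Irs2 loss and the lean meal. Otc and Slc25a13 passed in none of the 16. These counts give which comparisons passed a threshold and do not test comparisons against each other.

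**Figure D5:**
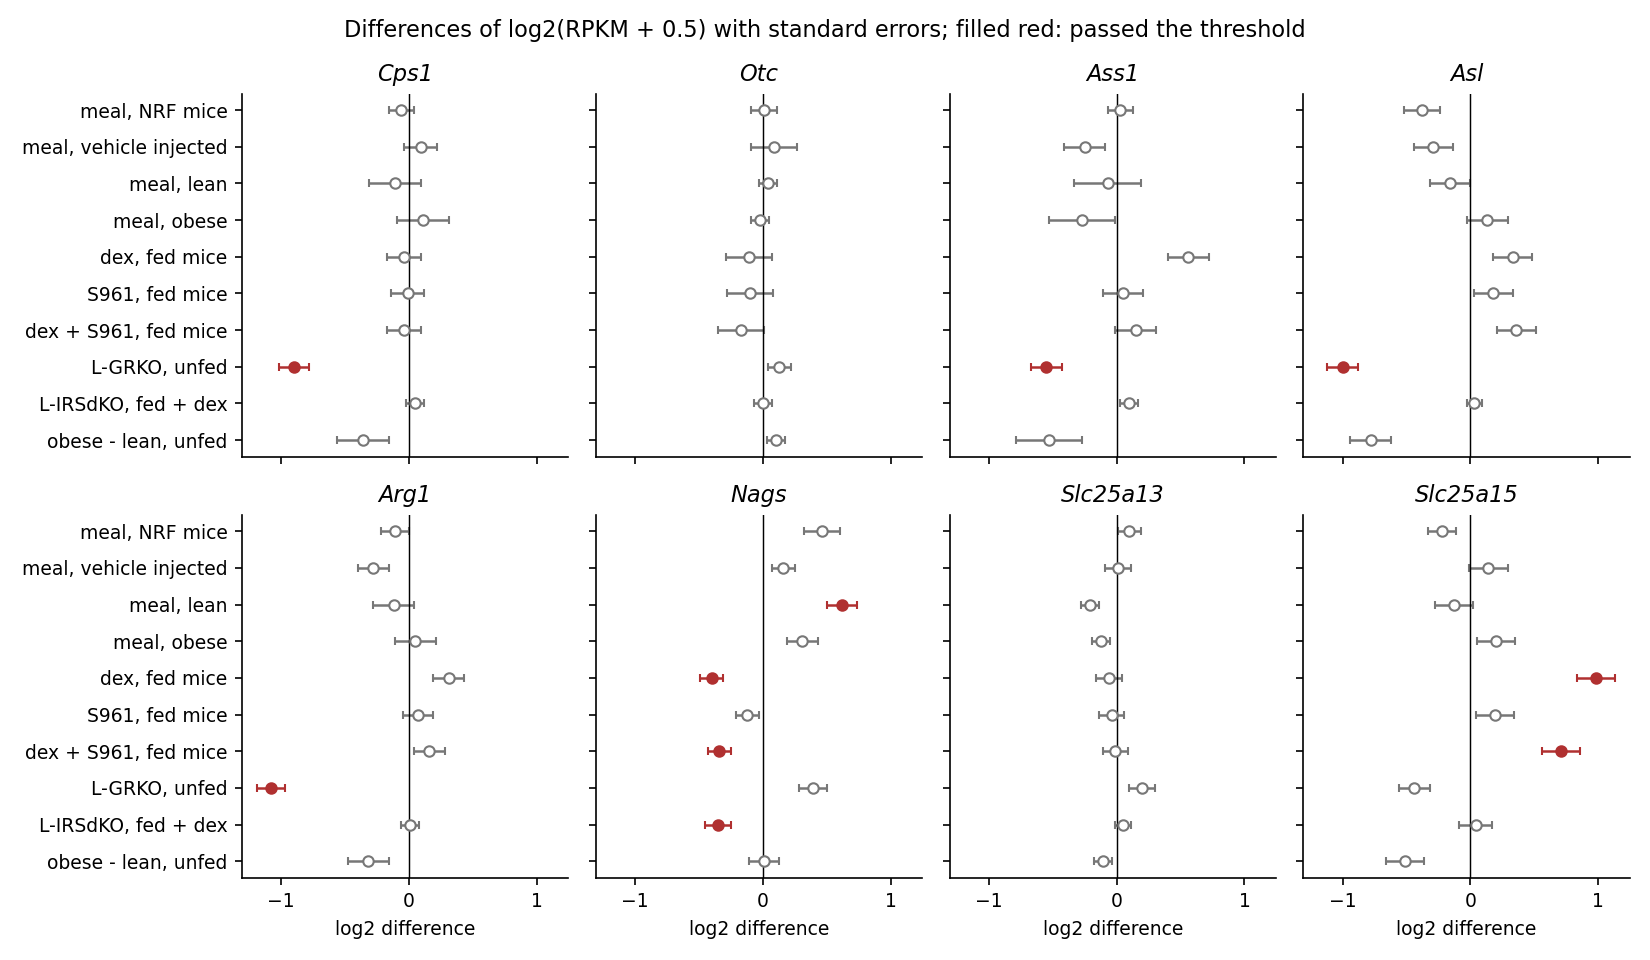
Log2 differences of RPKM + 0.5 with standard errors for each urea cycle gene (panels) in 10 of the 16 comparisons (rows); filled red points passed the threshold of their experiment. The L-GRKO points of Cps1, Ass1, Asl and Arg1 lie between -1.08 and -0.55, the Slc25a15 points lie at 0.98 and 0.71 with dex and with dex and S961, and all points of Otc and Slc25a13 are open.

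Likeness of profiles was described by Pearson's r over the 16 group means of log2 values, each centered on its experiment, as a description without a test, since groups of an experiment share libraries' depth and controls. Among the 8 genes it was highest for Cps1 and Arg1 (0.92), Asl and Arg1 (0.87) and Cps1 and Asl (0.85), and lowest for Otc and Asl (-0.76). Of 6529 genes that reached a mean of 5 RPKM, the 3 most like the mean of the 8 included Acmsd (0.92) and Slc37a4 (0.92), the glucose-6-phosphate transporter. For single genes, Eif4ebp3 (0.94) was most like Cps1, Gnpnat1 (0.95) Otc, Cyp39a1 (0.92) and Fkbp5 (0.92) Asl, Tango2 (0.96) Arg1, Hdhd3 (0.95) Nags, Nab1 (0.90) Slc25a13 and Lrrc58 (0.87) Slc25a15. Gm5424 (0.98) was most like Ass1, with which it shares sequence.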

How the data were processed

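Liver RNA-seq, ChIP-seq and DNase-seq files were used as deposited. Per the labels and methods, the authors aligned reads to mm9 with STAR, gave RNA as RPKM per RefSeq ID (35707 IDs, 35407 matched to 24312 symbols) and tested counts with DESeq2. RPKM are not counts, so count tests did not apply. The authors called peaks and DHSs with HOMER, on replicates (joined) or combined reads, and these lists hold positions only. Depth was not given in the files and was read from the steps between RPKM values of 1416 single-exon genes (at least 88.5% of low values within 0.1 read of a whole number in the 4 experiments printed).

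Each experiment was fitted alone with limma 3.58.1 (R 4.3.3) on log2(RPKM + 0.5), which understates changes of low genes, with a variance trend, over genes whose mean reached 0.5 RPKM. P-values were adjusted by Benjamini-Hochberg over all genes tested and called under 0.01 (NRF, obesity) or 0.05 (others), the thresholds of the study. They measure the spread between single mice. Peaks were assigned by the distance of their centre from the TSS of GENCODE vM1, and motifs were searched with pysam 0.24.0 and Python 3.11.15. On simulated data the fits recovered 96.5% (NRF ZT14-fed against ZT14-unfed), 93% (vehicle meal), 96.5% (L-GRKO), 90.5% (L-IRSdKO) and 96% (lean meal) of 200 genes changed by 1.5 on the log2 scale. These were called at an adjusted p under 0.05 in every experiment, also in NRF and lean mice, and 3.98% to 6.7% of the calls were false. A change of 1.5 is larger than any difference of the 8 genes, so the recovery of changes of their size was not tested. Alternatives were pseudocounts, filters, scalings, thresholds, a replicate block, the library series of injected mice as a term, leaving out each library, and 2 added after seeing the data (replicates 1 to 3 alone and Ass1 summed with Gm5424). The 8 genes are named in every comparison, and other genes come from lists of 23 nitrogen genes, 7 regulators and cell type markers, or are among the most alike in profile, of which some are not reported here. The members, lists and tests were chosen with earlier results of these data known.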

Additional observations from a re-analysis of the deposited data

Results flagged for a closer look

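In 4 of 72 sets of 4 livers (8 genes in the groups of 4), the gap between 1 liver and the nearest of the other 3 passed the 95% critical value of Dixon for the group's range, which chance passes in about 1 in 20 sets. Otc was at 154 RPKM in replicate 4 of the unfed vehicle mice, against 206 to 214 RPKM in the other 3, and Slc25a13 was at 81.9 RPKM in the same liver, against 97 to 98.5 RPKM. Otc was at 185 RPKM in replicate 2 of the L-GRKO controls, against 202 to 205 RPKM. Nags was at 22.9 RPKM in replicate 3 of the fed S961 mice, against 25.5 to 25.8 RPKM.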

How the results depend on the processing

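No difference of the 8 genes that was examined under the alternatives turned its direction among those past a threshold, and of the 89 differences outside the L-GRKO comparison at an unadjusted p of 0.05 or more, 42 turned sign under at least 1 alternative, all of them 0.20 or smaller. In the L-GRKO comparison Cps1, Asl and Arg1 were called under every alternative, as was Slc25a15 with dex, whereas Ass1 ran from -0.65 to -0.44 with adjusted p from 0.0193 to 0.108. Slc25a15 ran from -0.53 to -0.43 in the L-GRKO comparison with adjusted p from 0.0451 to 0.12, so calls moved there too. The larger moves in the counts of urea cycle genes called follow, and the cause was not tested beyond what each setting changes. Smaller moves are given only for leaving out a library. A threshold of 0.05 throughout gave 2 genes for ZT14-unfed against ZT10, 2 for the lean meal and 1 for unfed obese against lean mice. A threshold of 0.01 throughout gave 1 for dex, 1 for dex and S961, and 0 for L-IRSdKO, and it lost Ass1 for L-GRKO (adjusted p = 0.0254). Quantile normalization gave 1 for dex, 1 for dex and S961, 2 for dex against S961, 0 for L-IRSdKO and 0 for the lean meal. Fitting the compared groups alone gave 1 for dex, 1 for dex and S961 and 0 for the lean meal. Replicates 1 to 3 alone, the choice made after seeing the data, gave 5 for dex and 5 for dex against S961, where 7.28% and 10.2% of all genes were called. A mean of at least 2 RPKM gave 2 and the library series as a term 3 for dex against S961, the latter where 12.8% of all genes were called. No filter gave 0 for L-IRSdKO and 0 for the lean meal, no variance trend 0 for L-IRSdKO, and median-ratio scaling 0 for the lean meal. Leaving out each library in turn gave 1 to 5 genes for dex, 1 to 2 for dex and S961, 1 to 4 for dex against S961, 3 to 5 for L-GRKO, 0 to 1 for L-IRSdKO and 0 to 1 for the lean meal. Without dex replicate 1 or 2 the dex count was 1, and without dex replicate 4 it was 5, with Ass1 at 0.74, Asl at 0.53 and Arg1 at 0.44 (adjusted p = 0.00286, 0.00487 and 0.0161).

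The fits reported carry no block. Deviations of same-numbered samples correlated over 0.1 in 0 of 6, 27 of 40, 1 of 4, 0 of 4 and 3 of 18 pairs in the NRF, injected, L-GRKO, L-IRSdKO and obesity experiments. In the injected experiment the median correlation was 0.142 for same-numbered and -0.0506 for other pairs, so a part of the spread went with the number there. The fits reported for the injected mice did not take that part out. Each library was closest to its own number in 4 of 6, 12 of 20, 3 of 8, 2 of 8 and 4 of 12 libraries. With a replicate block, 3 genes were called for dex against S961 and 0 for L-IRSdKO, and over all genes the dex calls went from 359 to 968 and the L-GRKO calls from 778 to 616. The block also took the calls over all genes from 108, 127 and 186 to 40, 10 and 51 in the 3 NRF comparisons, from 352 to 928 for the vehicle meal, 214 to 432 for S961, 1193 to 2041 for dex and S961, 840 to 1370 for dex against S961, 2253 to 1441 for L-IRSdKO, 140 to 62 for the obese meal, 88 to 40 for unfed obese against lean and 15 to 3 for diet by meal. The library series as a term gave 1036, 1096, 478, 2204 and 1443 calls for the vehicle meal, dex, S961, dex and S961, and dex against S961, and replicates 1 to 3 gave 716 and 818 for the first 2. The median of all genes was -0.14 for dex and S961, 0.12 for ZT14-fed against ZT14-unfed, and within 0.10 of 0 elsewhere. With median-ratio scaling the share of calls that were higher went from 57.4% to 38.9%, 32.3% to 64%, 81.5% to 46.3%, 31.5% to 61.1%, 49.5% to 72.4%, 25.5% to 60.6%, 66.7% to 43.8%, 68.4% to 49.7% and 54.5% to 30.4% for ZT14-fed against ZT14-unfed, ZT14-unfed against ZT10, the vehicle meal, dex, S961, dex and S961, L-GRKO, the lean meal and unfed obese against lean, and calls fell from 127 to 75, 352 to 216 and 1193 to 774 for ZT14-unfed against ZT10, the vehicle meal and dex and S961. That scaling left 4 urea cycle genes called for L-GRKO and 2 for dex. With 2 livers a group in the NRF experiment, differences up to 0.72 (Asl, ZT14-unfed against ZT10) did not pass the threshold of 0.01.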

Other observations

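Counterparts of the urea cycle genes known from other tissues were low. Arg2, the arginase of extrahepatic tissues, stayed at or under 0.282 RPKM in the group means of the NRF, injected, L-GRKO and obesity experiments and was at 0.885 and 1.56 RPKM in control and L-IRSdKO livers, where it did not pass the test (adjusted p = 0.608). Slc25a2, the related ornithine carrier, stayed at or under 0.359 RPKM in all 16 group means and was not tested. Slc25a12 was at 4.04 to 7.61 RPKM outside the L-IRSdKO experiment and at 11.7 and 18.4 RPKM in control and L-IRSdKO livers. Oat, which degrades ornithine in pericentral hepatocytes, was at 491 ± 49.9 RPKM with S961 and 297 ± 33.7 RPKM with dex (SD, n = 4), and was lower with dex than with S961 by -0.72 (adjusted p = 0.0105).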
